A study of Vitis vinifera with 6 samples.

Results

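The flavonoid B-ring hydroxylases of grapevine were followed through 10 rows of the expression table. One is flavonoid 3'-hydroxylase (F3'H, VIT_17s0000g07200), whose identifier places it on chromosome 17. The other 9 are tandem copies of flavonoid 3',5'-hydroxylase (F3'5'H) with identifiers between VIT_06s0009g02810 and VIT_06s0009g03010 on chromosome 6. The 10 rows were taken by identifier and not by a cut on their values, although earlier results of these data were known. All were present among the 29536 genes used. The RefSeq gene table places a gene with the symbol F3'H on chromosome 17 and 2 genes with the symbol or synonym F3'5'H on chromosome 6, but does not pair them with these identifiers.

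The plants were F1 offspring of a cross between Red Globe and Crimson Seedless, 2 table grapes, grafted on the same rootstock and grown in the same field. Seed traces came from 3 seedless hybrids labelled sdi+, and seeds came from 3 seeded hybrids labelled sdi-. Stenospermocarpic seedlessness means that a seed begins to form and then stops, leaving a trace. All material was collected 4 weeks after anthesis, from berries 10 to 12 mm wide, with 12 to 50 fruits pooled per library. Each library is a different hybrid, so the spread within a class includes differences between plants. Seeded samples carry the word "Seededless" in their titles, but their phenotype, genotype, tissue and description mark them as seeds, and every direction given here rests on those labels.

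Both enzymes are cytochrome P450 monooxygenases that add hydroxyl groups to the B-ring of flavonoids. F3'H acts at the 3' position and leads to cyanidin-type pigments and to catechin and epicatechin, the building blocks of most seed tannin. F3'5'H acts at the 3' and 5' positions and leads to delphinidin-type pigments and to gallocatechins, which in grape are known from the tannin of the skin. The relative activity of the enzymes thus sets the hydroxylation pattern of the flavonoids made.

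Expression was given as RPKM, read counts scaled to gene length and to the reads of the library, so levels can be compared between genes. The read totals worked out from the steps of the RPKM values were 6576770 to 7470207 in seedless libraries and 7494969 to 9267651 in seeded libraries. Seedless replicate 1 stood apart from the rest: across tested genes its log2 values correlated at 0.85 and 0.86 with the other seedless libraries, which correlated with each other at 0.94, and at 0.73 to 0.74 with the seeded libraries. Results on the hydroxylases that rest on it are therefore given with and without it. The seed coat and ovule markers AGL11, MYBPA1, ANR and LAR1 were present in every library, with summed levels of 340.0 to 580.4 RPKM in seedless traces and 1013 to 1272 RPKM in seeds. MYBPA1, ANR and LAR1 are also among the flavonoid genes listed below, so their lower levels are not a separate result. AGL11, which is not among them, was lower in each seedless library than in each seeded one, as were 20.5% of tested genes. With all libraries AGL11 did not pass at an adjusted p under 0.05 (limma adjusted p = 0.161). Without seedless replicate 1 it passed, at -0.59 on the log2 scale, seedless over seeded (limma adjusted p = 0.0373). In that fit 6.61% of tested genes passed with seedless lower. The markers of pigmented berry skin, UFGT and MYBA1, were near 0, with summed levels of 0 to 0.173 RPKM in seedless traces and 0 to 0.372 RPKM in seeds. They are known to be switched on at ripening, so they do not measure carry-over of unripe flesh or skin. In bulk tissue, fewer cells of a type and less RNA per cell cannot be told apart.

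F3'H was the abundant hydroxylase in every library and was lower in seed traces. F3'H stood at 134.6, 145.8 and 138.1 RPKM in seedless replicates 1 to 3, against 333.1, 319.7 and 392.8 RPKM in seeded replicates 1 to 3. The classes did not overlap, and the seedless libraries lay closer together than the seeded ones. The means were 139.5 ± 5.72 RPKM in seedless traces and 348.6 ± 38.9 RPKM in seeds (SD, n = 3 each), so that traces held 0.400 times the level of seeds. The log2 fold change, seedless over seeded on the log2(RPKM + 1) scale, was -1.31 with an SE of 0.15 (limma adjusted p = 0.00674 over all genes tested). Of the 18749 genes tested, those that reached 1 RPKM in 3 or more libraries, 5.1% fell by the same rule (limma adjusted p under 0.05), and 12.3% changed in either direction. Classes that did not overlap, with seedless lower, were found for 20.5% of tested genes. An exact permutation test of 3 libraries against 3 cannot give a p below 0.1, so the call rests on limma, which shares its estimate of the spread across genes.

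The values of F3'H rest on 1608 to 1928 reads in seedless libraries and 4606 to 5245 reads in seeded libraries, on a gene model of 1770 bases. Seedless replicate 1, which stood apart across the transcriptome, did not stand apart for F3'H: its level was 0.923 to 0.975 times that of the other seedless libraries. Without it the log2 fold change was -1.28 (limma adjusted p = 0.00673; 0.00249 to 0.0383 over all alternatives), in a fit where 6.61% of tested genes fell. In order of level the libraries ran from seeded replicate 3 through seeded replicates 1 and 2 to seedless replicates 2, 3 and 1. The widest gap in that order lay between the lowest seeded library and the highest seedless one; the seedless libraries lay between 134.6 and 145.8 RPKM, and seeded replicates 1 and 2 differed by less than the class SD. Among tested genes, F3'H ranked 616th to 791st by RPKM in seedless libraries and 164th to 253rd in seeded libraries.

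The genes on either side of F3'H in identifier order moved in opposite directions. The table does not name them. VIT_17s0000g07210 had 49.5, 45.8 and 54.3 RPKM in seedless replicates 1 to 3, against 91.8, 92.3 and 113.3 RPKM in seeded replicates 1 to 3. It fell with F3'H, at -0.97 on the log2 scale (limma adjusted p = 0.0130), and its gene model of 1776 bases was close in length to that of F3'H. VIT_17s0000g07190 had 300.8, 216.0 and 260.3 RPKM in seedless replicates 1 to 3, against 114.2, 52.6 and 92.2 RPKM in seeded replicates 1 to 3. It rose, at 1.63 on the log2 scale (limma adjusted p = 0.0225), as 7.18% of tested genes did. Neither gene had overlapping classes, and the same held, in either direction, for 35.3% of the genes detected in any library. If reads of similar neighbouring copies were split between gene models, the levels of single copies are uncertain, and this was not tested.

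**Figure D1:**
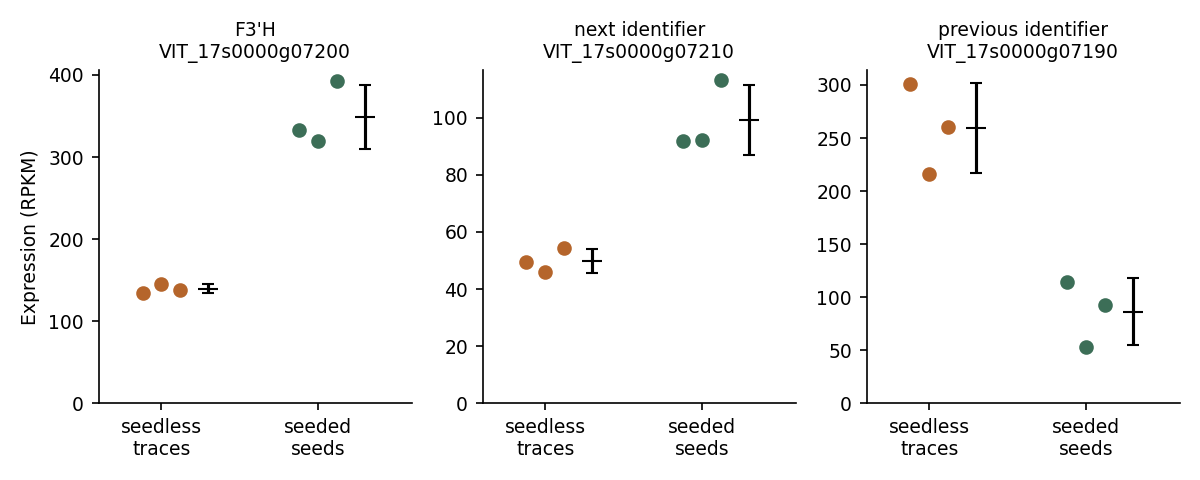
Expression in RPKM of F3'H and of the genes before and after it in identifier order, with 1 point per library and the class mean ± SD (n = 3 each) beside the points. F3'H lay between 134.6 and 145.8 RPKM in seedless traces and between 319.7 and 392.8 RPKM in seeds; the next gene was lower in seedless traces as well, and the previous gene was higher.

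The F3'5'H copies were far less abundant, and they differed more between single libraries than between the classes. Summed over the 9 copies, F3'5'H had 41.2, 1.37 and 2.33 RPKM in seedless replicates 1 to 3, against 10.6, 8.72 and 10.1 RPKM in seeded replicates 1 to 3. The seeded libraries were close together, seedless replicate 1 was above all of them and seedless replicates 2 and 3 were below all of them, so the classes overlapped. The means were 15.0 ± 22.7 RPKM in seedless traces and 9.79 ± 0.965 RPKM in seeds (SD, n = 3 each), whereas the medians were 2.33 RPKM in seedless traces and 10.1 RPKM in seeds. The difference of means, seedless minus seeded, was 5.17 RPKM with all libraries and -7.95 RPKM without seedless replicate 1. The sum in seedless replicate 1 was 3.89 to 4.72 times that of the seeded libraries and 17.7 to 30.1 times that of the other seedless libraries. No p-value is given for sums over the copies, because the copies were chosen with earlier results of these data known.

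**Figure D2:**
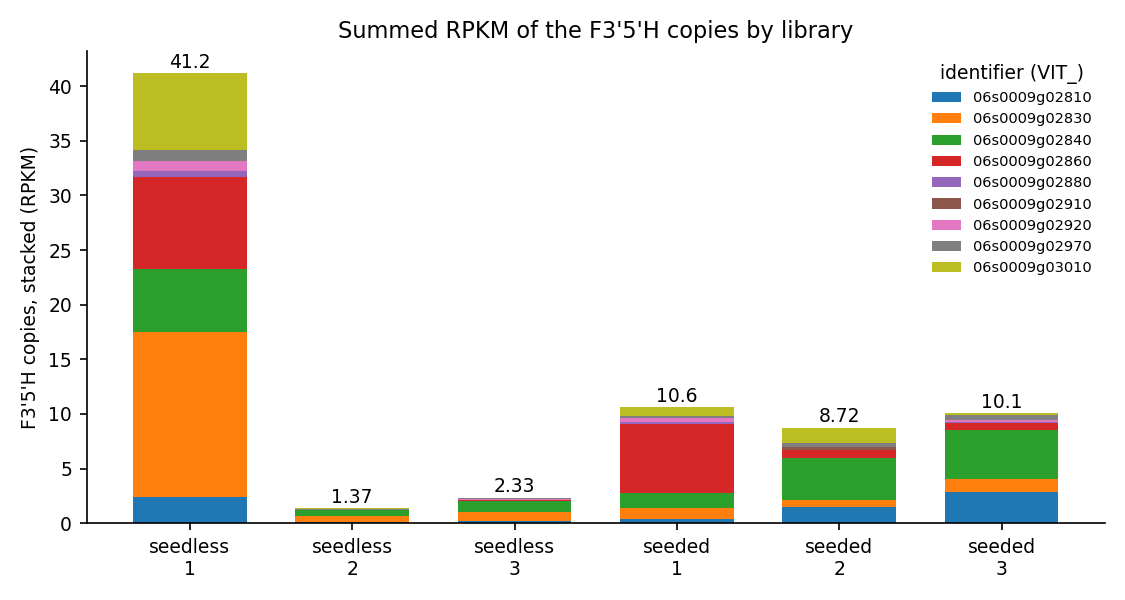
Summed RPKM of the 9 F3'5'H copies in each library, stacked by copy, with the sum above each bar. Seedless replicate 1 reached 41.2 RPKM, the other seedless libraries 1.37 and 2.33 RPKM, and the seeded libraries 8.72 to 10.6 RPKM.

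F3'H exceeded summed F3'5'H in every library, but by very different factors. The handling of reads shared between copies is not given. If reads shared by the F3'5'H copies were dropped, their sum and share are too low, and this was not tested. The ratio of F3'H to F3'5'H was 3.27, 106.7 and 59.3 in seedless replicates 1 to 3, against 31.4, 36.7 and 39.0 in seeded replicates 1 to 3. F3'5'H made up 23.4%, 0.929% and 1.66% of the summed hydroxylase RPKM in seedless replicates 1 to 3, against 3.08%, 2.66% and 2.498% in seeded replicates 1 to 3. Seedless replicate 1 thus had the highest F3'5'H share and the other seedless libraries the lowest shares. F3'H was nearly the same in all seedless libraries, so the differences in share among them followed the F3'5'H copies. Against the seeded libraries the shares also followed F3'H, which was lower in traces. Seedless replicate 1 was 3.89 to 4.72 times the seeded libraries in summed F3'5'H and 7.60 to 9.38 times in share. Seedless replicates 2 and 3 averaged 1.85 RPKM in the sum against 9.79 RPKM in seeds, and 1.29% in share against 2.75%. The mean share was 8.67% ± 12.8 among seedless libraries and 2.75% ± 0.303 among seeded libraries (SD, n = 3 each), a difference of 5.93 percentage points that was -1.45 without seedless replicate 1.

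Counted in reads, where longer gene models weigh more, the same order held. VIT_06s0009g02910 is left out of these counts, because its reads could not be worked out. It made up 3.29% of summed F3'5'H RPKM in seeded replicate 2 and was at 0 in every other library. The F3'5'H copies took 388 of the B-ring hydroxylase reads in seedless replicate 1, or 18.5% (exact 95% binomial interval 16.9% to 20.2%). They took 14 reads in seedless replicate 2, or 0.721% (0.395% to 1.21%), and 22 reads in seedless replicate 3, or 1.35% (0.848% to 2.04%). In seeded replicates 1 to 3 they took 127, 122 and 116 reads, or 2.68% (2.24% to 3.18%), 2.27% (1.89% to 2.71%) and 2.18% (1.80% to 2.61%). The interval of seedless replicate 1 was above all the others, that of seedless replicate 2 was below those of all seeded libraries, and that of seedless replicate 3 overlapped those of seeded replicates 2 and 3. These intervals cover counting error only and not the spread between plants; PCR copies were not removed by molecular identifiers.

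**Figure D3:**
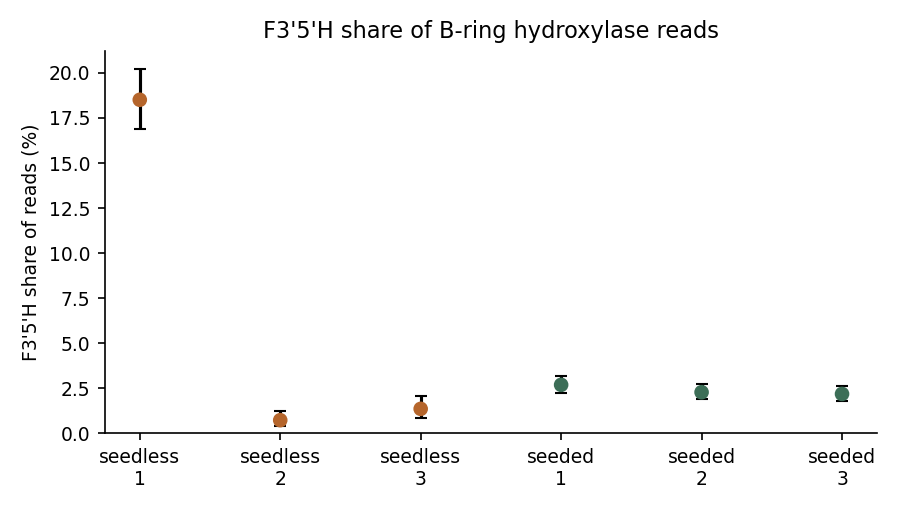
Share of B-ring hydroxylase reads that fell on the F3'5'H copies, in percent, by library, with VIT_06s0009g02910 left out. Bars are exact 95% binomial intervals. Seedless replicate 1 stood at 18.5%, the other seedless libraries at 0.721% and 1.35%, and the seeded libraries at 2.18% to 2.68%.

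Of the 9 copies, VIT_06s0009g02810 and VIT_06s0009g02840 passed the filter on low values, and 3 copies were under 1 RPKM in every library. The classes overlapped for every copy, whereas they did not for 35.3% of the 24536 genes detected in any library. VIT_06s0009g02840 had 5.81, 0.514 and 1.00 RPKM in seedless replicates 1 to 3, against 1.40, 3.79 and 4.46 RPKM in seeded replicates 1 to 3. Seedless replicate 1 was the highest library for this copy and the other seedless libraries were the lowest. The test gave -0.54 on the log2 scale with an SE of 0.62 and missed the threshold (limma adjusted p = 0.591). With seedless replicate 1 left out, the value was -1.19 and still missed it (limma adjusted p = 0.101; 0.101 to 0.927 over all alternatives).

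VIT_06s0009g02810 had 2.40, 0.1003 and 0.228 RPKM in seedless replicates 1 to 3, against 0.384, 1.45 and 2.90 RPKM in seeded replicates 1 to 3. The seeded libraries themselves spread widely for this copy, and seeded replicate 3 was its highest library. It too missed the threshold, at -0.51 on the log2 scale with an SE of 0.57 (limma adjusted p = 0.577), and at -1.03 when seedless replicate 1 was left out (limma adjusted p = 0.179; 0.179 to 0.903 over all alternatives). In limma, 0 of the tested copies had an unadjusted p under 0.05, and 31.6% of all tested genes did. With no filter on low values, 0 of the 9 copies passed and 0 had an unadjusted p under 0.05, and with limma's voom on reads 0 of 8 copies passed; 7.83% of genes passed with no filter, and 8.74% with no filter and voom. With no filter and seedless replicate 1 left out, 0 of the 9 copies passed in limma, 2 had an unadjusted p under 0.05, and 9.84% of genes passed. These shares of genes that passed are by adjusted p. The share of genes with an unadjusted p under 0.05 was not worked out without the filter. The unfiltered counts of 0 and 2 copies by unadjusted p therefore have no share to be read against.

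VIT_06s0009g02830 carried the largest part of the excess in seedless replicate 1. This copy stood at 15.1, 0.573 and 0.814 RPKM in seedless replicates 1 to 3, against 0.959, 0.693 and 1.14 RPKM in seeded replicates 1 to 3. The 101 reads in seedless replicate 1 compare with 4 and 5 reads in the other seedless libraries and 6 to 8 reads in seeded ones. Its level in seedless replicate 1 was 13.2 times that of the highest other library, whereas the remaining libraries lay within a narrow range. It gave 36.6%, 42.0% and 34.9% of summed F3'5'H in seedless replicates 1 to 3, against 9.05%, 7.95% and 11.4% in seeded replicates 1 to 3. As a part of the sum it was thus higher in each seedless library than in each seeded one, although 2 of the seedless values rest on 4 and 5 reads.

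VIT_06s0009g02860 was uneven within both classes. Its level was 8.40, 0 and 0.0943 RPKM in seedless replicates 1 to 3, against 6.35, 0.736 and 0.662 RPKM in seeded replicates 1 to 3. These values stand for 97, 0 and 1 reads in seedless libraries and 80, 11 and 8 reads in seeded libraries, and the 0 in seedless replicate 2 allows up to 0.249 RPKM at 3 reads. The copy was high in seedless replicate 1 and in seeded replicate 1, which are different hybrids, and low in the other libraries. It made up 60.0% of summed F3'5'H in seeded replicate 1, while VIT_06s0009g02840 led in seeded replicates 2 and 3 with 43.4% and 44.3%. Seeded libraries with nearly equal sums thus drew them from different copies.

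VIT_06s0009g03010 had 7.05, 0.104 and 0 RPKM in seedless replicates 1 to 3, against 0.796, 1.34 and 0.207 RPKM in seeded replicates 1 to 3. Its 65 reads in seedless replicate 1 put that library 5.25 times above the highest other one, and the 0 in seedless replicate 3 allows up to 0.354 RPKM at 3 reads. VIT_06s0009g02970 had 1.02, 0.0753 and 0.0855 RPKM in seedless replicates 1 to 3, against 0.216, 0.425 and 0.375 RPKM in seeded replicates 1 to 3. Seedless replicate 1 was the highest library for both copies. The other seedless libraries held 0 or 1 reads of each, against 2 to 16 reads of VIT_06s0009g03010 and 3 to 7 reads of VIT_06s0009g02970 in seeded libraries, so a difference from the lowest seeded library was not detectable at this depth.

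The last 3 copies were close to the limit of detection. VIT_06s0009g02920 had at most 0.891 RPKM and VIT_06s0009g02880 at most 0.530 RPKM, both in seedless replicate 1, on 9 and 4 reads. VIT_06s0009g02910 was listed at 0 in every library but seeded replicate 2, where it had 0.287 RPKM, and its reads could not be worked out from a single value. Between the first and the last copy the table listed 4 other identifiers, of which 3 were at 0 in every library and the fourth reached at most 0.585 RPKM.

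**Figure D4:**
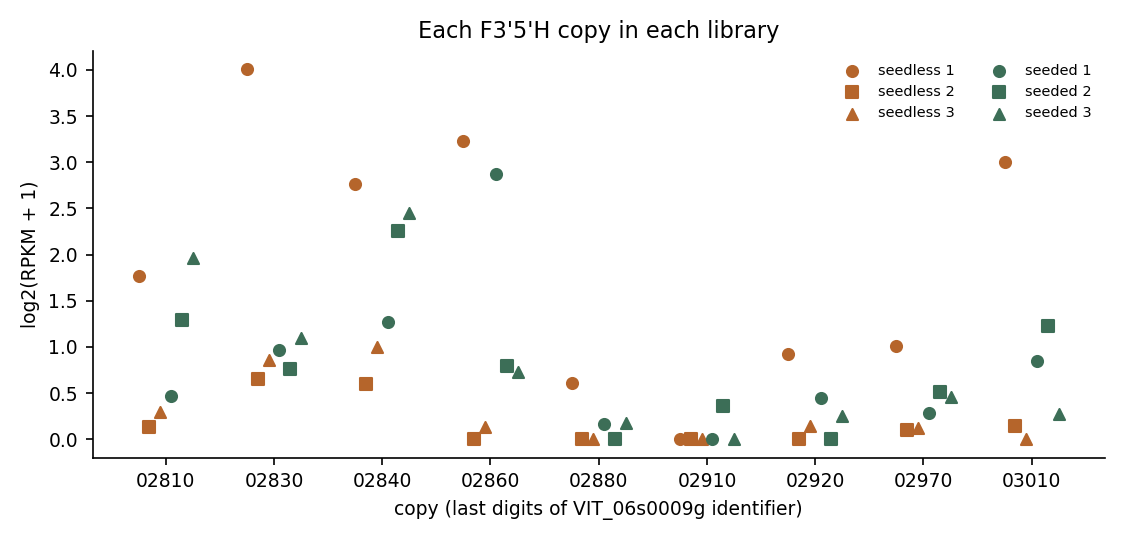
Level of each F3'5'H copy in each library on the log2(RPKM + 1) scale, with colour for class and marker shape for replicate. Seedless replicate 1 was the highest library for 7 of the 9 copies; VIT_06s0009g02860 was high in seedless replicate 1 and seeded replicate 1 alike.

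Seedless replicate 1 was the highest library for 7 of the 9 copies, the exceptions being VIT_06s0009g02810 and VIT_06s0009g02910, and it was the highest library for 30.8% of the 24536 genes detected. For 5 of the 9 copies it was more than 2 times above the highest other library, and the same held for 11.7% of those genes. With seedless replicate 1 set aside, 5 of the 9 copies (VIT_06s0009g02810, VIT_06s0009g02840, VIT_06s0009g02860, VIT_06s0009g02970 and VIT_06s0009g03010) were lower in both remaining seedless libraries than in every seeded library, against 20.7% of those genes. For VIT_06s0009g02810, VIT_06s0009g02970 and VIT_06s0009g03010 that order sets 0 to 2 reads in the seedless libraries against 2 to 4 reads in the lowest seeded library, which is not a detectable difference at this depth. For VIT_06s0009g02840 it sets at most 12 reads against 20, and for VIT_06s0009g02860 at most 1 read against 8. Neither copy passed without seedless replicate 1. The limma adjusted p was 0.101 for VIT_06s0009g02840, and 0.309 with no filter for VIT_06s0009g02860. These counts were chosen after the values were seen, and tandem copies of similar sequence are not independent of each other. Seedless replicate 1 also had the lowest summed seed coat and ovule markers, 340.0 RPKM, against 580.4 and 529.6 RPKM in seedless replicates 2 and 3. The markers did not all differ alike. AGL11 stood at 47.5 RPKM in seedless replicate 1, against 197.1 and 177.0 RPKM in seedless replicates 2 and 3. MYBPA1 was close to seedless replicate 3 (173.4 against 180.1 RPKM), and LAR1 was above seedless replicate 2 (26.9 against 22.1 RPKM). ANR was lowest in seedless replicate 1, at 92.2 RPKM. The part of these differences in the F3'5'H values was not tested.

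Within the flavonoid pathway F3'H fell together with other enzymes, whereas no F3'5'H copy passed. Only 2 copies were above the filter, at low levels and with SEs of 0.57 and 0.62. Without seedless replicate 1 their log2 fold changes were -1.03 and -1.19, against -1.28 for F3'H. The missed threshold therefore does not show that F3'5'H differs from the pathway. The 19 listed genes of flavonoid and tannin synthesis and their MYB regulators include F3'H; apart from the hydroxylases, their symbols were recalled from the published grapevine catalogue and not taken from a file. Of the 19 genes 17 were tested: 9 fell, 0 rose and 8 missed the threshold (limma adjusted p under 0.05), beside the 5.1% of all tested genes that fell. The median log2 fold change was -1.04 over the 17 genes and -0.04 over all tested genes. The list was chosen with earlier results known, and its count does not stand as separate evidence. F3'H had the lowest adjusted p of the list. The count of falls was 8 without seedless replicate 1, 2 without seeded replicate 1, 2 without seeded replicate 2 and 1 without seeded replicate 3; that 1 was F3'H, which passed in each of these fits. It was 6 without seedless replicate 2 and 6 without seedless replicate 3. Each of the other 8 genes that fell lost its call with at least 1 library left out.

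Upstream of F3'H, chalcone synthase makes the flavonoid skeleton and flavanone 3-hydroxylase opens the way to dihydroflavonols. Their log2 fold changes were -1.73 for CHS1, -1.27 for CHS2 and -1.32 for F3H1, which fell, and -0.92 for CHS3 and -0.89 for F3H2, which missed the threshold (limma adjusted p = 0.0543 and 0.0741). The call of CHS2 is weak: its adjusted p in limma was 0.0420 with all libraries, 0.0598 without seedless replicate 1 and 0.0573 to 0.136 with any 1 library left out, and it was also lost with no filter (0.107) and with quantile normalization (0.102). Downstream, dihydroflavonol reductase (DFR) and the tannin enzymes anthocyanidin reductase (ANR) and leucoanthocyanidin reductase 1 (LAR1) fell, with log2 fold changes of -1.47, -1.04 and -1.84. ANR lost its call with quantile normalization (limma adjusted p = 0.0535). Leucoanthocyanidin dioxygenase (LDOX) stood at -0.92 and missed the threshold (limma adjusted p = 0.0570). LDOX and CHS3 passed in some of the processing alternatives given below. MYBPA1, a MYB factor known to activate tannin genes, fell with a log2 fold change of -1.34. Of the chalcone isomerase identifiers, VIT_13s0067g02870 fell at -1.23 and VIT_13s0067g03820 stood at -0.56 and missed the threshold (limma adjusted p = 0.0725). The call of VIT_13s0067g02870 is weak too (limma adjusted p = 0.0443 with all libraries). It was lost with no filter (limma adjusted p = 0.0614) and with quantile normalization (0.0963). It was also lost without seedless replicate 3 (0.0780) and without any 1 seeded library (0.0932 to 0.148). Leucoanthocyanidin reductase 2 (LAR2) was higher in each seedless library than in each seeded one, at 1.70, but missed the threshold (limma adjusted p = 0.0799). Classes that did not overlap, in either direction, were found for 35.3% of genes detected in any library. LAR2 stood at 75.9, 21.5 and 21.1 RPKM in seedless replicates 1 to 3, against 10.4, 12.5 and 6.19 RPKM in seeded replicates 1 to 3, and without seedless replicate 1 its log2 fold change was 1.11 (limma adjusted p = 0.0505). The flavonol synthase FLS1 at -0.14, MYB5a at 0.67 and MYB5b at -0.08 had overlapping classes and missed it as well. Without seedless replicate 1 the classes no longer overlapped for FLS1, at 0.99, or for MYB5b, at -0.75, and both still missed the threshold (limma adjusted p = 0.0688 and 0.0603). In that comparison 20.7% of genes detected in any library were lower in both seedless libraries than in every seeded one. The share that was higher was not worked out. The fall of F3'H lay within the range of these genes.

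**Figure D5:**
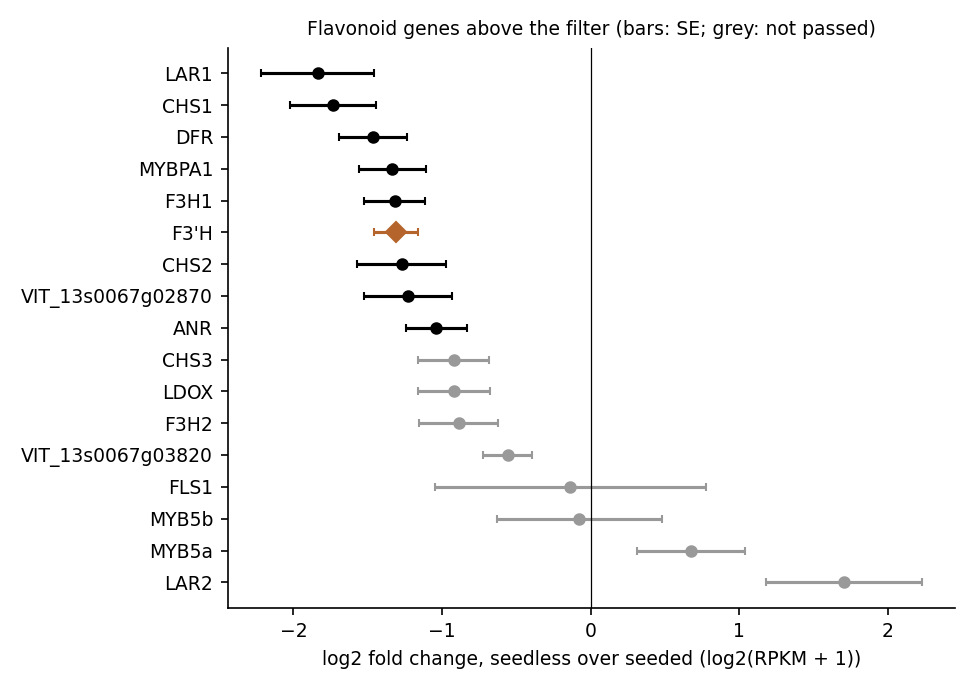
Log2 fold change, seedless over seeded on the log2(RPKM + 1) scale, of the 17 flavonoid genes above the filter, with bars for the SE; black genes and F3'H (diamond) passed at an adjusted p under 0.05 in limma and grey genes did not. F3'H at -1.31 lay among the other genes that fell.

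Across the 6 libraries the pattern of F3'H was most like that of VIT_05s0094g00050 and VIT_05s0029g01370, with Pearson r of 0.998 and 0.997 on the log2(RPKM + 1) scale among 10884 tested genes with a mean of at least 10 RPKM. The table does not pair these identifiers with names. VIT_05s0094g00050 had 40.0, 41.2 and 40.0 RPKM in seedless replicates 1 to 3, against 62.1, 63.7 and 69.3 RPKM in seeded replicates 1 to 3. Of the listed flavonoid genes F3H1 was nearest, with r of 0.988, and the neighbour VIT_17s0000g07210 had r of 0.982. The points of these correlations are 2 classes of 3 libraries, so that any gene with a clear class difference scores high.

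Summed F3'5'H had r of 0.20 with F3'H over the 6 libraries and 0.97 without seedless replicate 1. Its pattern was most like that of VIT_06s0009g01570 and VIT_14s0036g00500, which are not named in the table, with r of 0.999 each. VIT_06s0009g01570 had 29.4, 16.8 and 18.0 RPKM in seedless replicates 1 to 3, against 23.1, 22.1 and 23.1 RPKM in seeded replicates 1 to 3. With seedless replicate 1 highest and seedless replicates 2 and 3 lowest, it followed the sum over a much narrower range, although seeded replicates 1 and 3 were nearly level and stood in the other order. Among the listed genes, MYB5b, a MYB factor known to act on flavonoid genes in grape, was nearest to the sum with r of 0.97. MYB5b had 9.69, 1.79 and 1.53 RPKM in seedless replicates 1 to 3, against 3.64, 3.07 and 3.68 RPKM in seeded replicates 1 to 3, and its log2 fold change was -0.08 (limma adjusted p = 0.939). FLS1, the flavonol synthase that uses the products of both hydroxylases, ran the other way to the sum, with r of -0.94. The points of each correlation are the same 6 libraries, with seedless replicate 1 far from the rest. Without it, r with the sum was 0.95 for MYB5b and -0.92 for FLS1, over 5 libraries that fall into the 2 classes.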

How the data were processed

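Seed content of 6 hybrids was sequenced from TruSeq stranded mRNA libraries, per the labels' protocols. The authors deposited RPKM values, 1 column per library. Tools listed, with no role, in the submitters' processing notes are edgeR 2.2.6, HTSeq 0.5.4p5 and TopHat2 2.0.13; the genome build, the strand setting and the handling of reads shared between copies are not given in the sources used here. Of 29548 rows, 12 were dropped because a value held 2 decimal points.

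Whole reads and library totals were worked out from the RPKM steps, by the smallest gene length that makes all 6 values whole, which succeeded for 94.9% of the genes above 0, at a chance limit of 0.01 and with at least 2 libraries above 0. No pair of libraries agreed within sampling noise (chi-square per degree of freedom 13 to 119). The precision this depth gives is 0.108 to 0.152 RPKM per read on 1 kb.

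The genes that reached 1 RPKM in 3 or more libraries were compared as log2(RPKM + 1), which understates changes of low genes, with limma 3.58.1 in R 4.3.3 (lmFit, eBayes with trend, two-sided, Benjamini-Hochberg, threshold 0.05). Scripts were tested on simulated data. Members and lists were chosen with earlier results of these data known. The rule named all members, the flavonoid list, the markers, the genes next to a member and, for each hydroxylase, the 2 genes of most similar pattern. Symbols other than those of the members were recalled from the grapevine gene catalogue, since 0 identifiers matched the RefSeq table (ASM3070453v1); 14 of the 19 list symbols occur there, 13 of them on the chromosome of the identifier. A check by chromosome cannot tell apart the chalcone isomerase identifiers, both on chromosome 13, so that pair is shown by identifier. It cannot tell apart CHS1 and CHS2 on chromosome 14 either. The symbols F3H1, F3H2, MYB5a and MYB5b do not occur in the RefSeq table and are used as recalled. VIT_11s0016g01310, entered as MYBPA2 and below the filter with UFGT, may be wrongly assigned.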

Additional observations from a re-analysis of the deposited data

How the results depend on the processing

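The fall of F3'H kept its direction and passed in all 16 alternatives (log2 fold change -1.38 to -1.14, limma adjusted p = 0.00249 to 0.0383), which covered pseudocounts of 0.1 and 0.5, no filter or 5 RPKM, quantile and median scaling, no trend, library weights, a replicate block, voom on reads and each library left out. No F3'5'H copy passed in any of them, and at 5 RPKM none was left to test. The difference of summed F3'5'H RPKM was -1.44 with only the copies above the filter and -7.73 with class medians, and -7.95 to 12.0 with a library left out; without VIT_06s0009g02830 it was 0.607. The difference in F3'5'H share was -0.997 percentage points with class medians and -1.45 to 9.80 with a library left out. Both turned direction without seedless replicate 1 alone among the libraries. Genes that differed numbered 2303, 3603 with library weights, and 429 to 2909 with a library left out. Falls in the flavonoid list were 1 to 8 with a library left out, the lowest without a seeded library, and 10 with VIT_11s0016g01320 in place of VIT_11s0016g01310. They numbered 6 with quantile normalization, 7 with no filter and 10 with the replicate block. At 5 RPKM and with median scaling, no trend or voom they numbered 11. With library weights 12 genes of the list fell and 1 rose. The cause of these changes was not tested. For the other flavonoid genes 203 comparisons kept their call, 34 lost it, 13 gained it and 5 reversed. The 5 were FLS1, at 0.74 with library weights and -0.78 to 0.99 with a library left out, and MYB5b, at -0.75 to 0.29 with a library left out. CHS3 and LDOX gained a call at 5 RPKM and with median scaling, no trend, library weights and voom. The other gains were VIT_13s0067g03820 and LAR2 with library weights and F3H2 with the replicate block. Class medians, the exchanged identifier, the unfiltered fits by voom or without seedless replicate 1 and the correlations without that library were added after seeing the data.

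With the replicate block 1714 genes differed, and F3'H stayed at -1.31 on the log2 scale (limma adjusted p = 0.0274). Libraries that share a number are different hybrids. Across genes, their deviations from the class mean had correlations of 0.07, 0.18 and 0.10, and every library was most like its own number, which the design gives no reason for. A level of 3 reads on a copy is 0.177 to 0.488 RPKM, depending on copy and library, and differences below it were not detectable.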
